A study of Bos taurus with 4 samples.

Results

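The 3 genes described here belong to the major histocompatibility complex (MHC) system, out of 24616 gene rows in all: B2M (ENSBTAG00000012330), JSP.1 (ENSBTAG00000002069) and BoLA-DRB3 (ENSBTAG00000013919). They were chosen by Ensembl identifier as 1 light chain and 1 heavy chain of class I and 1 beta chain of class II, and 3 of 3 were found in the deposited table. The pairing of identifier and name comes with that choice, since the table itself holds identifiers only. The series holds 4 RNA-seq libraries of cattle whose breed is labelled Hostein, 2 of mammary tissue labelled female and 2 of lymphocytes labelled male. No treatment, age or lactation stage is given in the sources used here, and it is not stated whether the 2 libraries of a source are from different animals. Each difference below is therefore one between both tissue and sex, which cannot be told apart. Its error comes from spreads between the 2 libraries of a source, which may be partly technical. In the test of all 4 libraries as deposited, that spread was the one typical of rows at the gene's level, and not the gene's own.

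MHC class I molecules sit on nearly all nucleated cells and show peptides from inside the cell to cytotoxic T cells. Each consists of a polymorphic heavy chain, such as the product of JSP.1, and the invariant light chain beta-2-microglobulin, the product of B2M, which most heavy chains need to reach the cell surface. Class II molecules pair an alpha with a beta chain, here that of BoLA-DRB3, and show peptides from taken-up material to helper T cells. They are made constitutively by B cells, dendritic cells and macrophages, while T cells of several mammals other than mice also make them once activated. In RefSeq (assembly ARS-UCD2.0, used for names and gene order only), JSP.1 and BOLA-DRB3 lie on the same chromosome with 112 protein-coding genes between them, and B2M lies on another. That chromosome carries 18 protein-coding genes with a BoLA name or synonym, JSP.1 included. The protein-coding neighbours of BOLA-DRB3 there are BOLA-DRB2 and LOC100848815, which carries DQA synonyms, and BOLA-NC1 is a neighbour of JSP.1. How reads shared between related class I or DRB genes were assigned is not given in the sources used here, so the JSP.1 and BoLA-DRB3 values are uncertain to that extent.

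The values are FPKM, fragment numbers corrected for transcript length and for how many fragments of a library were mapped, so levels can be set side by side between genes. The summed FPKM of a library ranged from 828745 to 1536182, and between 15844 and 17953 rows were above 0. Mammary replicate 2 stood apart: its median tested row was at 2.58 FPKM, against 6.85 to 9.2 in the other libraries. Its 20 highest rows held 88.1% of the summed FPKM, against 79.2% in mammary replicate 1 and 63.7% and 57.6% in lymphocyte replicates 1 and 2. This share was thus higher in both mammary libraries than in both lymphocyte libraries. The part of mammary replicate 2 in the results below is shown by values within a library and by values without that library. Leaving it out does not remove the difference in this share between the sources.

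B2M was the most abundant of the 3 genes in every library. Its level was 1763 FPKM in mammary replicate 1 and 635.8 FPKM in mammary replicate 2, against 5032 and 3837 FPKM in lymphocyte replicates 1 and 2. Both lymphocyte libraries lay above both mammary libraries, as in 52.7% of the rows that reached 1 FPKM in 2 or more libraries. The lower lymphocyte value was 2.18 times the higher mammary value. The means were 1199.6 ± 797 FPKM in mammary tissue and 4434.5 ± 845 FPKM in lymphocytes (SD, n = 2 each). Among the rows of a library, B2M ranked 36th and 53rd in mammary replicates 1 and 2, and 12th and 18th in lymphocyte replicates 1 and 2. The light chain was thus among the highest rows of the mammary libraries too.

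JSP.1, the class I heavy chain, reached 180.8 FPKM in mammary replicate 1 and 33.9 FPKM in mammary replicate 2, against 317.1 and 465.1 FPKM in lymphocyte replicates 1 and 2. Both lymphocyte values again lay above both mammary values, as in 52.7% of tested rows. The lower lymphocyte value was 1.75 times the higher mammary value. The mammary libraries were far apart from each other, replicate 1 being 5.33 times replicate 2. The means were 107.3 ± 104 FPKM in mammary tissue and 391.1 ± 105 FPKM in lymphocytes (SD, n = 2 each). JSP.1 ranked 257th and 554th in the mammary libraries and 172nd and 155th in the lymphocyte libraries.

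BoLA-DRB3, the class II beta chain, reached 196.2 FPKM in mammary replicate 1 and 29.4 FPKM in mammary replicate 2, against 419.9 and 469.1 FPKM in lymphocyte replicates 1 and 2. Again the groups did not overlap, a separation in this direction shared by 52.7% of tested rows. The factor between the lower lymphocyte and the higher mammary value was 2.14. The means were 112.8 ± 118 FPKM in mammary tissue and 444.5 ± 34.8 FPKM in lymphocytes (SD, n = 2 each). The lymphocyte replicates were close to each other, while mammary replicate 1 was 6.66 times mammary replicate 2. BoLA-DRB3 ranked 243rd and 617th in the mammary libraries and 142nd and 153rd in the lymphocyte libraries. Even in mammary replicate 2 this class II gene was within the highest 2.51% of all rows.

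**Figure D1:**
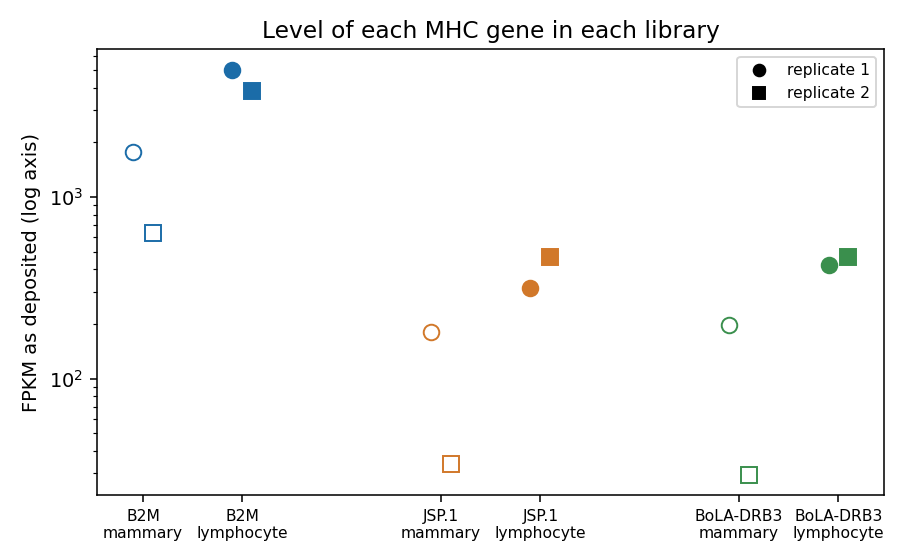
FPKM as deposited (log axis) of B2M, JSP.1 and BoLA-DRB3, 1 point per library, open for mammary tissue and filled for lymphocytes, circles for replicate 1 and squares for replicate 2. For each gene both lymphocyte points lie above both mammary points, and mammary replicate 2 is the lowest, at 635.8, 33.9 and 29.4 FPKM. This separation held for 52.7% of tested rows, and the same order with mammary replicate 2 lowest for 50.8%.

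The difference between the sources was tested for the 12311 rows that reached 1 FPKM in 2 or more libraries, all 3 MHC genes among them, by limma on log2(FPKM + 1). Of the 3 genes, 1 was higher in lymphocytes at an adjusted p below 0.05, against 10.7% of all tested rows in that direction. BoLA-DRB3 differed by -2.52 (mammary minus lymphocyte, log2 scale, SE 0.90, 95% interval -4.28 to -0.76, limma adjusted p = 0.0294). JSP.1 missed the threshold at -2.27 (SE 0.90, 95% interval -4.03 to -0.52, limma adjusted p = 0.0565). B2M missed it as well, at -2.05 (SE 0.94, 95% interval -3.89 to -0.21, limma adjusted p = 0.117). The 3 intervals overlapped widely, so lying on different sides of the threshold does not show that the genes differed from each other. Overlap of such wide intervals does not show differences of like size either.

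Most rows of the table were lower in the mammary libraries, with a median difference of -0.81. Relative to that median row the differences were -1.24 for B2M, -1.46 for JSP.1 and -1.71 for BoLA-DRB3. Of the 12311 rows, 9.75% lay further toward lymphocytes than B2M, 7.69% further than JSP.1 and 6.01% further than BoLA-DRB3. These positions rested in part on the pseudocount and on single libraries. With a pseudocount of 0.1 FPKM the shares were 16.8%, 13.5% and 10.9% in the same order. With a pseudocount of 5 FPKM they were 4.02%, 3.35% and 2.49%. Without mammary replicate 2 the median row was at -0.32, and the differences from it were -0.998 for B2M, -0.76 for JSP.1 and -0.85 for BoLA-DRB3. The shares of rows further toward lymphocytes were then 12.5%, 17.5% and 15.4% in the same order, so B2M, and not BoLA-DRB3, lay furthest from the median row. Without mammary replicate 1 the shares were 8.69%, 4.61% and 3.06%, with BoLA-DRB3 at -2.58 from the median row, and without lymphocyte replicate 1 the share for B2M was 15.4%. That both lymphocyte libraries lay above both mammary libraries held for 52.7% of tested rows, so the separation of the groups in 3 of 3 MHC genes is common in this table.

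**Figure D2:**
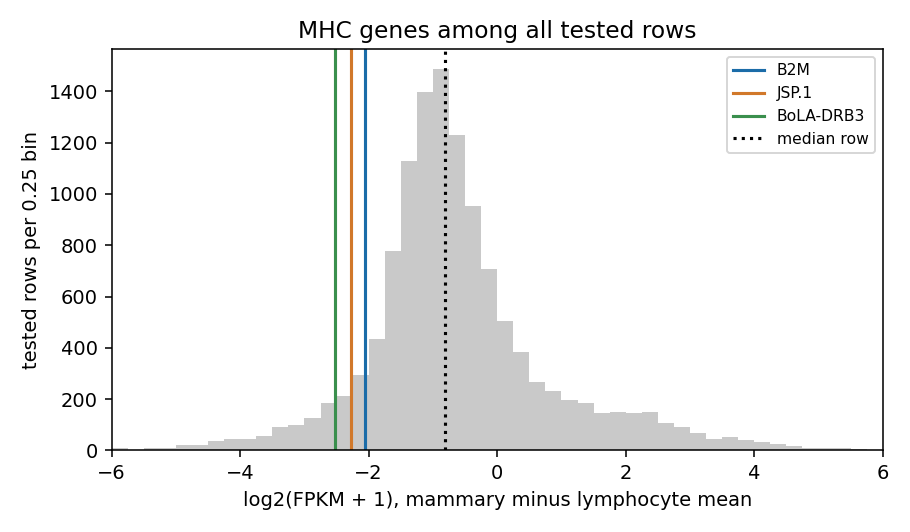
Number of tested rows by their difference in log2(FPKM + 1), mammary minus lymphocyte mean, in bins of 0.25, with the 3 MHC genes as solid lines and the median row (-0.81) dotted; rows beyond 6 in either direction are not drawn. The MHC genes lie at -2.05, -2.27 and -2.52, left of the median row.

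The calls depended on the scaling and on single libraries. In this fit limma's prior had infinite degrees of freedom, so each gene was given the spread typical of rows at its level and not its own. Median-of-ratios scaling brought the median row to 0.04, and the spread of each gene then counted. In that fit 0 of 3 genes passed the threshold, against 7.77% of tested rows called higher in lymphocytes. The differences were then -0.98 for B2M, -1.21 for JSP.1 and -1.46 for BoLA-DRB3 (limma adjusted p = 0.186, 0.127 and 0.131; unadjusted p = 0.0869, 0.0478 and 0.0502). On that scale BoLA-DRB3 was at 178.5 and 69.4 in mammary replicates 1 and 2 and at 340.0 and 279.2 in lymphocyte replicates 1 and 2. JSP.1 was at 164.4 and 79.9 in the mammary libraries and at 256.8 and 276.8 in the lymphocyte libraries. B2M was at 1604 and 1499 in the mammary libraries, now close together, and at 4075 and 2284 in the lymphocyte libraries. The groups still did not overlap for any of the 3, which held for 34.1% of tested rows. Because they did not overlap as deposited either, another pseudocount, filter or trend, or a library left out as deposited, could not reverse a difference. With FPKM as deposited, leaving out mammary replicate 2 reduced the differences to -1.32, -1.08 and -1.17 for B2M, JSP.1 and BoLA-DRB3, and none passed (limma adjusted p = 0.495, 0.405 and 0.357). Leaving out mammary replicate 1 moved them to -2.79, -3.46 and -3.87. Mammary tissue was then represented by mammary replicate 2 alone, the library that stood apart, and the spread was taken from the lymphocyte replicates. Without either lymphocyte library, BoLA-DRB3 kept a difference of -2.60 or -2.44 but was no longer called (limma adjusted p = 0.55 and 0.714), with the spread then taken from the mammary replicates alone.

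**Figure D3:**
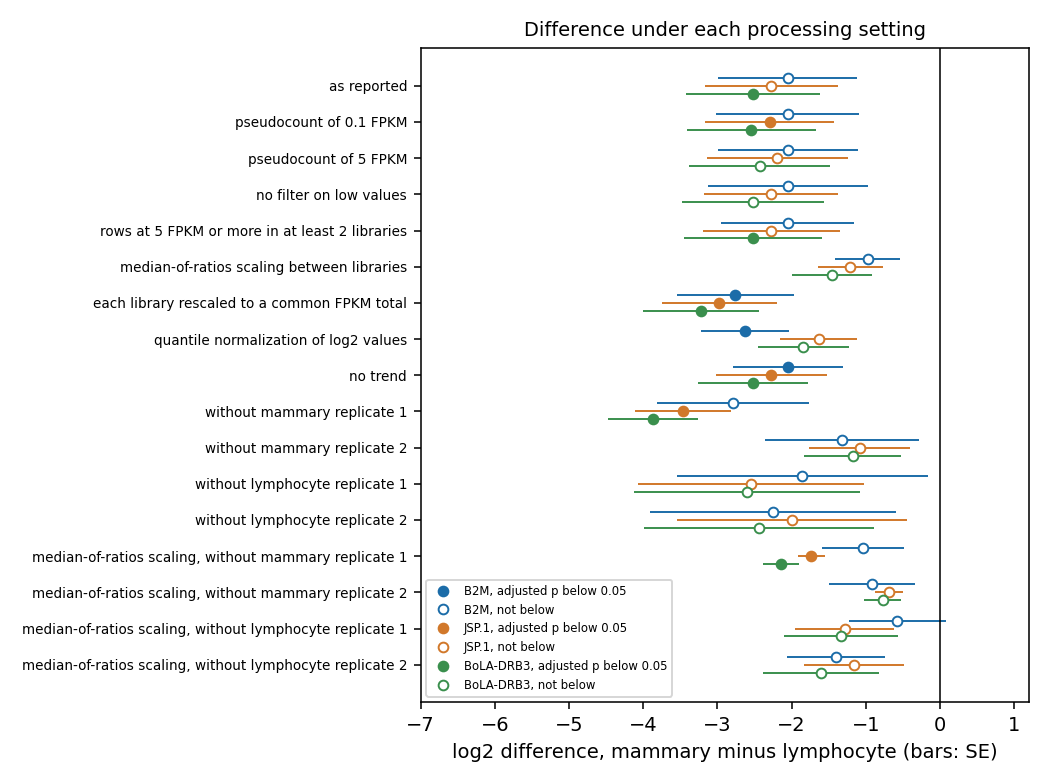
Difference in log2 level, mammary minus lymphocyte, of each MHC gene under the reported setting and 16 alternatives, with bars of 1 SE and filled points where limma's adjusted p was below 0.05. All points lie left of 0, from -3.87 to -0.58, a side that only a change of scaling could reverse. The filled points change from setting to setting.

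The mammary replicates differed more in JSP.1 and BoLA-DRB3 than in most rows. Between mammary replicates 2 and 1, log2(FPKM + 1) differed by -1.47 for B2M, -2.38 for JSP.1 and -2.70 for BoLA-DRB3, against a median of -1.05 over the tested rows and quartiles of -1.43 and -0.64. Only 3.72% of rows lay lower than JSP.1 in this comparison and 1.97% lower than BoLA-DRB3, whereas 23.1% lay lower than B2M. The heavy chain and the class II gene thus fell further from mammary replicate 1 to mammary replicate 2 than the median row did. Whether they were low in replicate 2 or high in replicate 1 cannot be told from this difference. B2M was near the lower quartile, but after median-of-ratios scaling its values in mammary replicates 1 and 2 were close, at 1604 and 1499. Between lymphocyte replicates 2 and 1 the differences were -0.39 for B2M, 0.55 for JSP.1 and 0.16 for BoLA-DRB3, against a median of 0.40. B2M was the one of the 3 that was lower in lymphocyte replicate 2, and 6.63% of rows lay lower still. These replicate differences compare single libraries and have no test.

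**Figure D4:**
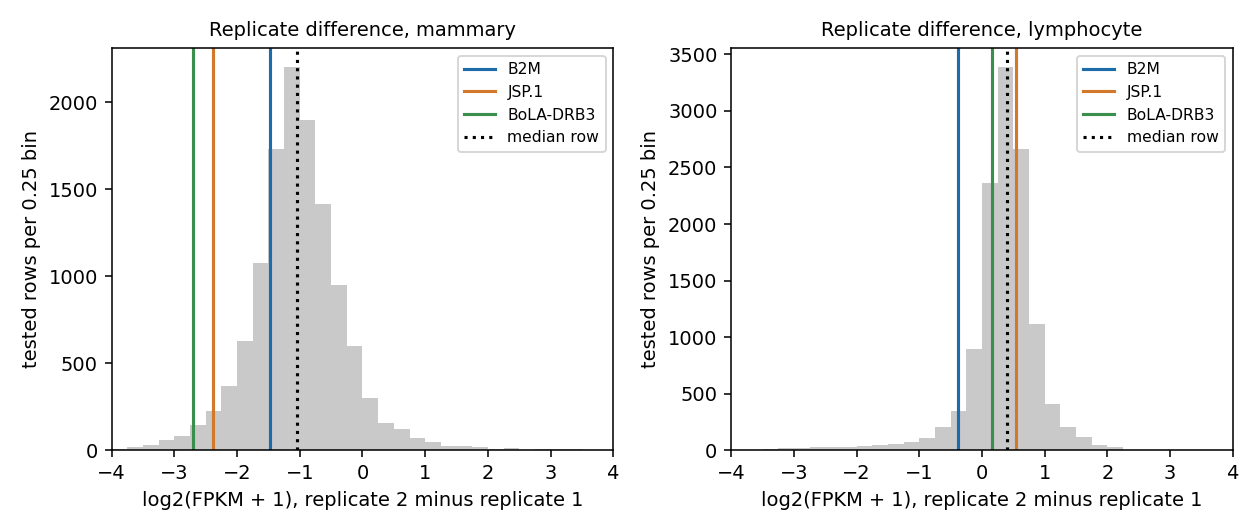
Number of tested rows by their difference in log2(FPKM + 1) between replicates 2 and 1 of mammary tissue (left) and lymphocytes (right), in bins of 0.25, with the MHC genes as solid lines and the median row dotted; rows beyond 4 in either direction are not drawn. JSP.1 (-2.38) and BoLA-DRB3 (-2.70) lie in the lower tail on the left, and B2M (-0.39) lies in the lower tail on the right.

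Ratios between the MHC genes within a library do not depend on how libraries are scaled, and none separated the sources. B2M was 9.75 and 18.8 times JSP.1 in mammary replicates 1 and 2 and 15.9 and 8.25 times JSP.1 in lymphocyte replicates 1 and 2. The excess of light chain over this 1 heavy chain thus covered nearly the same range in both sources. The log2 ratio of JSP.1 to B2M was -3.76 ± 0.67 in mammary tissue and -3.52 ± 0.67 in lymphocytes (SD, n = 2 each; difference -0.24, exact two-sided permutation p = 0.667). B2M was 8.99 and 21.6 times BoLA-DRB3 in the mammary libraries and 12.0 and 8.18 times BoLA-DRB3 in the lymphocyte libraries. The log2 ratio of BoLA-DRB3 to B2M was -3.80 ± 0.89 in mammary tissue and -3.31 ± 0.39 in lymphocytes (SD, n = 2 each; difference -0.49, exact two-sided permutation p = 0.667).

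The class II and the class I heavy chain were near parity in every library. BoLA-DRB3 was 1.09 and 0.869 times JSP.1 in mammary replicates 1 and 2 and 1.32 and 1.01 times JSP.1 in lymphocyte replicates 1 and 2. The log2 ratio was -0.04 ± 0.23 in mammary tissue and 0.21 ± 0.28 in lymphocytes (SD, n = 2 each; difference -0.25, exact two-sided permutation p = 0.667). For all 3 ratios the groups overlapped and the adjusted p over the 3 was 0.667. With 2 libraries against 2 such a test cannot give a two-sided p below 0.333, so its p-values do not show that the ratios were alike in both sources. In the order of levels, B2M stood above both other genes in every library, by 8.18 times or more. The ratio of BoLA-DRB3 to JSP.1 lay on both sides of 1, from 0.869 to 1.32, and a difference in level between these genes was not tested.

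**Figure D5:**
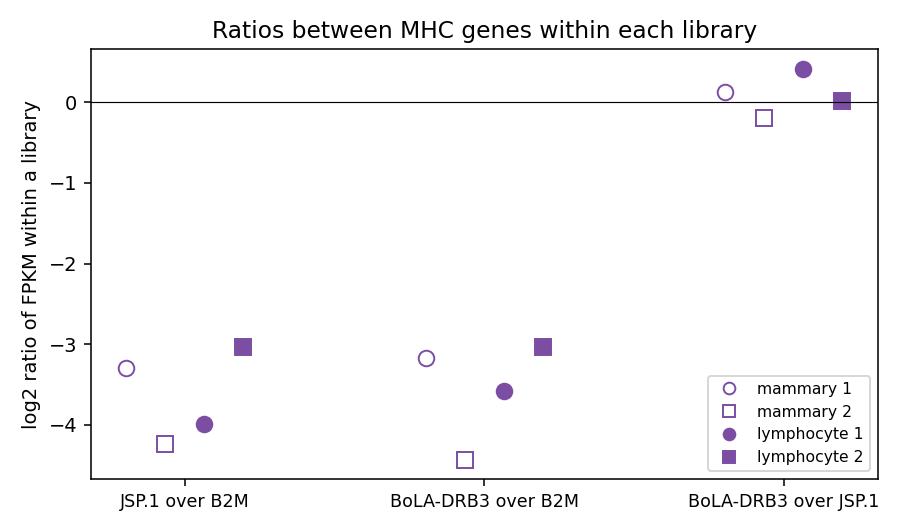
Log2 ratio of FPKM between pairs of MHC genes within each library, open for mammary tissue and filled for lymphocytes, circles for replicate 1 and squares for replicate 2. The ratios to B2M range from -4.43 to -3.03 with both sources intermixed, and BoLA-DRB3 over JSP.1 lies between -0.20 and 0.41.

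Likeness of pattern was measured as the Euclidean distance between the 4 values of log2(FPKM + 1), each centred on its row's mean, against 12310 other rows. JSP.1 and BoLA-DRB3 were 0.43 apart. From BoLA-DRB3, 23 rows (0.187%) were nearer than JSP.1, and from JSP.1, 63 rows (0.512%) were nearer than BoLA-DRB3. B2M was less like them, at 0.95 from JSP.1 and 1.06 from BoLA-DRB3. From B2M, 1830 rows (14.9%) were nearer than JSP.1 and 2562 rows (20.8%) nearer than BoLA-DRB3. In the other direction, 743 rows (6.04%) were nearer to JSP.1 than B2M was, and 453 rows (3.68%) nearer to BoLA-DRB3. The row nearest to B2M was ENSBTAG00000018548, at a distance of 0.11, with 7.63 and 2.02 FPKM in the mammary libraries and 25.5 and 18.3 FPKM in the lymphocyte libraries. The row nearest to JSP.1 was ENSBTAG00000010645, also at 0.11, with 2480 and 467 FPKM in the mammary libraries and 4700 and 6330 FPKM in the lymphocyte libraries. The row nearest to BoLA-DRB3 was at 0.13. These distances describe 4 libraries, and an order with mammary replicate 2 lowest, mammary replicate 1 next and both lymphocyte libraries above was shared by 50.8% of the tested rows.

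Other genes of antigen presentation could not be placed beside these. The 43 further genes of the class I and class II lists, among them the TAP peptide transporters, the class II partner chain BOLA-DRA and the invariant chain CD74, were matched to 0 rows, because no source used here pairs their symbols with the table's identifiers. The same held for the 56 markers of immune, epithelial, stromal, endothelial and red cells. The labelled tissues were therefore not checked against markers, and the part of B cells, macrophages or other immune cells within either source in these MHC levels was not tested. In such bulk samples fewer cells of a type and less RNA per cell cannot be told apart.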

How the data were processed

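RNA of 2 mammary and 2 lymphocyte libraries was sequenced as pairs of 150 bp reads, per the labels. The authors deposited 1 table of FPKM values per Ensembl gene identifier and library, with no read counts, so depth is unknown and no counting interval is given. The submitters' processing notes name Trimmomatic 0.39, STAR, Cufflinks and the assembly UMD3.1. Not given in the sources used here are their roles and settings, the annotation release and how multi-mapping reads were treated. Each value column matched 1 sample title, and replicates were numbered in accession order. Rows that reached 1 FPKM in 2 or more libraries were compared as log2(FPKM + 1) with limma 3.58.1 in R 4.3.3 (two-sided, mean-variance trend, tissue as the only term, Benjamini-Hochberg adjustment over 12311 rows, threshold 0.05), without scaling between libraries. Ratios within a library were taken without a pseudocount and compared by exact permutation. The genes and lists were chosen with earlier results of these data known. The rule for named genes took the 3 MHC genes, list members past the threshold and the row most like each MHC gene, with at most 2 identifiers printed. The RefSeq gene table at hand, of another assembly, holds 0 of the 24616 identifiers, so no coordinates are given, and no sequences are shown. Alternatives covered pseudocount, filter, scaling, trend and single libraries.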

Additional observations from a re-analysis of the deposited data

How the results depend on the processing

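The 3 MHC differences were negative under all 16 alternatives, but only a change of scaling could reverse them. B2M passed the threshold under 3, JSP.1 under 5 and BoLA-DRB3 under 6. By limma, B2M passed after rescaling to a common FPKM total (-2.76), after quantile normalization (-2.63) and without the trend (-2.05). JSP.1 passed with a pseudocount of 0.1 (-2.29), after rescaling to a common total (-2.97), without the trend (-2.27) and, as deposited or after median-of-ratios scaling, without mammary replicate 1. BoLA-DRB3 missed the threshold with a pseudocount of 5 (-2.43), without the filter on low values (-2.52), after median-of-ratios scaling (-1.46) and after quantile normalization (-1.84). Leaving out 1 library as deposited gave -2.79 to -1.32 for B2M, -3.46 to -1.08 for JSP.1 and -3.87 to -1.17 for BoLA-DRB3; after median-of-ratios scaling it gave -1.40 to -0.58, -1.73 to -0.68 and -2.14 to -0.77 (BoLA-DRB3 at -1.34 and -1.61 without lymphocyte replicates 1 and 2). Limma's adjusted p ranged from 0.00229 to 0.87, from 0.000818 to 0.909 and from 0.000268 to 0.714 in the same order. Among all tested rows, 2363 were called, 44.5% of them higher in mammary tissue; the share was 62.1% after median-of-ratios scaling and 16.0% after rescaling to a common total. The count was 5 without the filter, 1370 with a filter at 5 FPKM and 6718 after rescaling to a common total. It was 102 to 3828 without 1 library and 0 to 2556 without 1 library after median-of-ratios scaling (1527 without mammary replicate 2), where by limma 0 rows passed without either lymphocyte library (2816 and 2975 rows at an unadjusted p below 0.05). The cause of these changes was not tested. Without the filter, the degrees of freedom of limma's prior went from infinite to 4.67. Rows at an unadjusted p below 0.05 by limma then numbered 4367, against 3613 with the filter. A filter also alters the number of rows, and a left-out library the spread available. The difference in the ratio of JSP.1 to B2M turned to 0.23 without mammary replicate 2 or without lymphocyte replicate 2 (range -0.71 to 0.23), and that of BoLA-DRB3 to B2M to 0.14 without mammary replicate 2 (range -1.12 to 0.14). That of BoLA-DRB3 to JSP.1 kept its sign (-0.45 to -0.05). No paired analysis was possible because the titles carry 4 different numbers and nothing pairs the libraries.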
